A study of Mus musculus with 9 samples.

Results

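Claudins are the membrane proteins of the tight junction, and 10 claudin genes (Cldn1, Cldn2, Cldn3, Cldn4, Cldn7, Cldn8, Cldn12, Cldn15, Cldn18 and Cldn23) were followed through mouse gut organoids. They were taken by gene symbol from a table of raw read counts, where they are 10 of 23955 rows. Another 16 rows carry a symbol that begins with Cldn. RNA-seq was performed on 9 organoid cultures in 3 groups of 3, each derived from mice that carry the min mutation in 1 copy of the tumor suppressor Apc. The MIN group came from gut epithelium next to the tumors, the adenoma group from adenomatous polyps, and the sulindac group from adenomatous polyps with the NSAID sulindac added. Every culture was grown in Advanced DMEM/F12 with Noggin, EGF, bFGF, R-spondin1 and B27. The control epithelium therefore carries the same inherited Apc mutation, and no organoids of wild-type mice were analysed here. The state of the other Apc copy was not examined in any group. The dose and duration of sulindac in organoids, the vehicle given to untreated adenomas and the age of the mice are not given in the sources used here. The study names its replicates as biological, but no label ties a culture to a mouse, so the p-values below measure the spread between these samples.

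Tight junctions close the space between neighbouring epithelial cells, and the claudins in the strands decide which ions and how much water may pass. Some claudins, such as claudin-2 and claudin-15, form pores for small cations, whereas others, such as claudin-3, claudin-4 and claudin-8, mainly tighten the seal. In the intestine the set of claudins differs between crypt and villus and between small intestine and colon.

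The regions just upstream of Cldn2 and Cldn15 are shown because these members had the largest losses of transcript in adenoma organoids. The sequences are RefSeq's on GRCm38.p6 and run from 250 to 31 bases before the annotated start, 5′ to 3′ on the gene's strand. Cldn2 lies on the plus strand of the X chromosome (chrX:139800558-139800777), and Cldn15 on the plus strand of chromosome 5 (chr5:136967619-136967838). The Cldn15 window lies in the first intron of a longer annotated transcript. Capitals mark a match to TTTATG, the core of the motif bound by the intestinal transcription factors Cdx1 and Cdx2.
Cldn2: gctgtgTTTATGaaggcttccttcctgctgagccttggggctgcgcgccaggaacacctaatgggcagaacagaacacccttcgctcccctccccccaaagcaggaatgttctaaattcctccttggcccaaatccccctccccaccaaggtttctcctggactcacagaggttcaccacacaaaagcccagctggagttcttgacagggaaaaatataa
Cldn15: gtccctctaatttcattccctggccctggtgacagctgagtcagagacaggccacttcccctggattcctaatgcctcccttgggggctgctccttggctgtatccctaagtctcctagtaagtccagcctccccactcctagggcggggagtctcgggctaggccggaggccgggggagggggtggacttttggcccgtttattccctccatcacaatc
The Cldn2 match begins 244 bases before the start. Windows of this length were found for 8 of the 10 members, 12 windows in all, and among them TTTATG on either strand (reverse complement CATAAA) occurred only in that of Cldn2. It occurred in 9.56% of the 32851 windows of all genes. CTTTGA (reverse complement TCAAAG), the core of the motif of the Wnt pathway's TCF factors, occurred in 12.6% of all windows and, among the members, only in those of Cldn18. A match describes letters in a window, and factor binding was not measured.

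The 9 libraries held 30881206 to 48412477 counts, with 5.15% to 7.48% of them in the 10 top genes. Levels are given as CPM, counts scaled to a common library total after TMM normalization over all 9 samples. A value of 3 counts, taken as the floor of detection, equals 0.0641 to 0.10 CPM, a bound that covers counting error only. MIN replicate 3 and adenoma replicate 3 stood apart from the other samples of their groups (chi-square per gene 65.4 to 77.8, against 18.4 and 19.7 between the other samples), so values that rest on them are also given without them. For the epithelial label, Cdh1 (E-cadherin), Vil1 (villin) and Cdx1 are given in MIN and adenoma, picked from a list of 15 after their values were seen. All 3 were lower in adenoma, whereas Krt18 and Ascl2 of that list went the other way. Krt18 stood at 551.3 ± 145.9 CPM (SD, n = 3) in MIN against 921.2 ± 230.4 CPM in adenoma. Cdh1 stood at 1034 ± 140.3 CPM (SD, n = 3) in MIN against 565.3 ± 65.9 CPM in adenoma. Vil1 stood at 528.1 ± 18.8 CPM (SD, n = 3) in MIN against 195.1 ± 31.9 CPM in adenoma. Cdx1 was at 101.2 ± 11.6 CPM (SD, n = 3) in MIN and at 0.0855 ± 0.0511 CPM, about the floor, in adenoma, where it cannot serve the label. Markers of leukocytes (5 genes) summed to 3.38 to 4.09 CPM in MIN, nearly all of it Itgam, 0.391 to 0.702 in adenoma and 0.0873 to 0.333 after sulindac. Markers of endothelium (4 genes) summed to at most 0.758 CPM and those of fibroblasts (4 genes, of which Col1a2, Col3a1 and Dcn were at 0 in every sample) to at most 1.09 CPM. Markers of gastric epithelium (7 genes) summed to 2.58 to 3.84 CPM in MIN, mostly Atp4a, 1.80 to 10.03 in adenoma, mostly Muc6 and Tff2, and 0.300 to 0.856 after sulindac. The part of these cells in the claudin values was not tested.

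**Figure D1:**
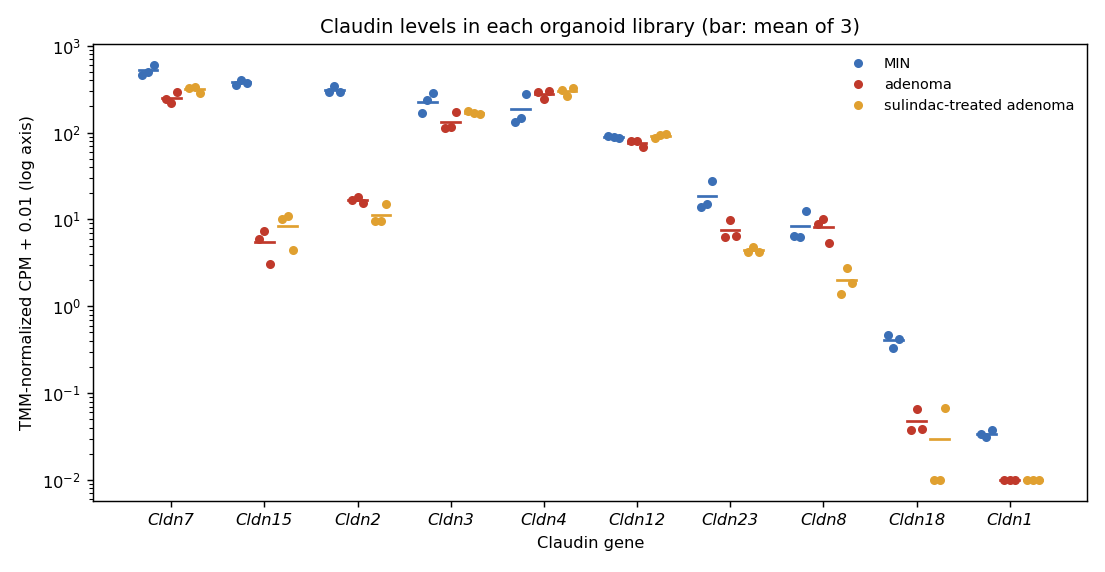
TMM-normalized CPM plus 0.01 on a log axis for the 10 claudin genes (x axis), with a point per library and a bar at the mean of 3. Cldn2 and Cldn15 lie at 291.9 CPM or more in every MIN library and at 18.2 CPM or less in every adenoma and sulindac-treated library, whereas Cldn12 lies between 69.1 and 95.4 CPM in all 9.

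Adenoma organoids were compared with MIN organoids to ask how the epithelium of the polyp differs from the epithelium beside it. The claudins of cation pores, Cldn15 and Cldn2, were far lower in adenoma, by 69.3-fold and 18.5-fold in mean CPM, though still well above the floor. Cldn7, a partner of EpCAM, fell 2.07-fold, and Cldn23 and the scarce Cldn18 also fell. The sealing claudins Cldn3 and Cldn4, the atypical Cldn12 and Cldn8 did not pass the threshold, though Cldn3, lower by 1.71-fold in mean CPM, passed in some other fits. By edgeR's quasi-likelihood test at an FDR of 1% over 13744 genes, 9 members were tested, 5 were lower and none was higher, against 20.1% of all genes lower and 18.5% higher. The median log2 fold change of the 9 members was -1.05, beside -0.0077 for all genes tested. Cldn18 could be tested only through its MIN counts, and without it 4 of 8 were lower, with a median of -0.91. At an unadjusted p under 0.05, 1 member (Cldn4) was higher and 6 were lower, against 28.3% and 29.6% of all genes. DESeq2's Wald test called 0 higher and 6 lower, Cldn3 among them, against 18.4% and 21.0% of all genes. In 6 of the 9 every adenoma sample lay below every MIN sample, which held for 32.2% of all genes, and in 0 the order was the other way, which held for 30.7%. In bulk RNA, fewer cells that express a claudin and less of its RNA per cell cannot be told apart.

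Cldn15 encodes a claudin of sodium-conducting pores of the small intestine. It stood at 357.1, 404.9 and 374.6 CPM in MIN replicates 1 to 3, at 6.01, 7.32 and 3.06 CPM in adenoma, and at 10.03, 10.9 and 4.39 CPM after sulindac. The MIN libraries lie far above all 6 others, and the adenoma and sulindac ranges overlap. Adenoma over MIN gave a log2 fold change of -6.11 (edgeR's quasi-likelihood test, standard error (SE) 0.30, adjusted p = 9.1e-07), and omitting any library kept it within -6.38 and -5.83.

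Cldn2, whose protein lets cations and water through the junction and is typical of leaky epithelia, stood at 291.9, 343.2 and 292.8 CPM in MIN, at 16.6, 18.2 and 15.4 CPM in adenoma, and at 9.47, 9.51 and 15.0 CPM after sulindac. Its adenoma samples varied little among themselves and did not overlap with MIN. Adenoma over MIN gave a log2 fold change of -4.20 (SE 0.13, adjusted p = 8.79e-08 by the same edgeR test), and leaving out libraries moved it between -4.27 and -4.13.

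Cldn7 encodes a claudin found along the lateral membrane as well as in the junction, where it binds EpCAM. It stood at 461.4, 504.3 and 603.9 CPM in MIN, at 243.6, 216.9 and 296.8 CPM in adenoma, and at 325.0, 336.0 and 284.9 CPM after sulindac. Every MIN sample lies above every other sample, and the treated and untreated adenomas overlap. It was lower in adenoma than MIN by a log2 fold change of -1.05 (SE 0.16, adjusted p = 0.000573 by the same edgeR test). Epcam itself stood at 1057 ± 119.1 CPM (SD, n = 3) in MIN, 734.0 ± 106.3 CPM in adenoma and 555.1 ± 58.7 CPM after sulindac. It did not pass in adenoma over MIN (log2 fold change -0.52, adjusted p = 0.0187 by the edgeR test).

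Cldn23 encodes an atypical claudin with a long cytoplasmic tail. It stood at 13.8, 15.0 and 27.6 CPM in MIN, at 6.21, 9.83 and 6.36 CPM in adenoma, and at 4.23, 4.77 and 4.19 CPM after sulindac. The 3 groups follow each other without overlap, and MIN replicate 3 is the highest library. The change from MIN to adenoma was -1.33 in log2 (SE 0.30, adjusted p = 0.00583 by the edgeR test), and blocking on replicate number gave an adjusted p of 0.0107. The call was also lost without MIN replicate 3 (adjusted p = 0.0108), adenoma replicate 1 (0.0234) or adenoma replicate 3 (0.0338), with library size alone (log2 fold change -1.18, adjusted p = 0.0105), and without both libraries numbered 3 (log2 fold change -0.84, adjusted p = 0.0167).

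Cldn18, the claudin of stomach and lung epithelium, had 19, 15 and 15 counts in MIN, 1, 2 and 1 in adenoma, and 0, 0 and 2 after sulindac. Adenoma and sulindac libraries all lie at or under the floor of 3 counts. Summed over the libraries, the 49 counts of MIN against 4 in adenoma gave a ratio of 10.4 after normalization (95% exact interval 3.82 to 39.8, counting error only). It entered the edgeR test (adjusted p = 0.000651) only through its MIN counts, and with at least 10 counts required in every sample it was not tested. Cldn1, a sealing claudin prominent in skin, had 1 count in each MIN library and 0 in each of the other 6, which is under the floor throughout. It was not tested, and no fold is given.

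Cldn4, a sealing claudin, stood at 134.0, 145.8 and 275.2 CPM in MIN, at 296.6, 242.1 and 297.7 CPM in adenoma, and at 308.5, 261.5 and 322.8 CPM after sulindac. MIN replicate 3 reaches into the adenoma range, and the other MIN libraries lie below every other sample. The change from MIN to adenoma was 0.59 in log2 (SE 0.26, adjusted p = 0.085 by the edgeR test). Without MIN replicate 3 it was 0.99 (adjusted p = 0.000722), and without both libraries numbered 3 it was 0.95 (adjusted p = 0.000461).

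Cldn3, another sealing claudin that neighbours Cldn4 on chromosome 5, stood at 165.9, 234.5 and 281.9 CPM in MIN, at 111.5, 117.1 and 170.4 CPM in adenoma, and at 178.6, 167.7 and 164.5 CPM after sulindac. Adenoma replicate 3 lies just above MIN replicate 1, and the other adenoma samples lie below all MIN samples. The change from MIN to adenoma was -0.77 in log2 (SE 0.22, adjusted p = 0.0184 by the edgeR test). Blocking on replicate number let it pass (log2 fold change -0.76, adjusted p = 0.00237). It also passed without MIN replicate 1 (adjusted p = 0.00537), without adenoma replicate 3 (0.00984) and without both libraries numbered 3 (0.00815). A joint edgeR fit of the 9 samples (adjusted p = 0.00612) and DESeq2's Wald test (adjusted p = 0.00219) let it pass too. The ratio of Cldn4 to Cldn3 counts was 0.807, 0.622 and 0.976 in MIN, 2.66, 2.07 and 1.75 in adenoma, and 1.73, 1.56 and 1.96 after sulindac. Cldn3 reads thus outnumbered those of Cldn4 in every MIN library, and Cldn4 reads those of Cldn3 in all 6 others. In GENCODE M21, 3.18% of the exon bases of Cldn3 overlap Wbscr25 on the opposite strand, and whether reads were counted by strand is not given in the sources used here.

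Cldn12, an atypical claudin whose tail lacks the usual binding site for ZO proteins, lay in a narrow range. It stood at 90.7, 89.9 and 87.6 CPM in MIN, at 80.5, 80.1 and 69.1 CPM in adenoma, and at 86.5, 92.7 and 95.4 CPM after sulindac. All adenoma samples lie below all MIN and all treated samples, by small margins. Its change from MIN to adenoma was -0.22 in log2 (SE 0.10, adjusted p = 0.0997 by the edgeR test). Cldn8, a sealing claudin of colon and kidney, stood at 6.45, 6.35 and 12.6 CPM in MIN and at 8.76, 10.1 and 5.35 CPM in adenoma. The groups overlap, and the log2 fold change was -0.065 (adjusted p = 0.885 by the edgeR test). Its sign depended on the scaling and on the libraries numbered 3: it was 0.083 with library size alone and 0.56 (adjusted p = 0.0195) without both of those libraries.

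**Figure D2:**
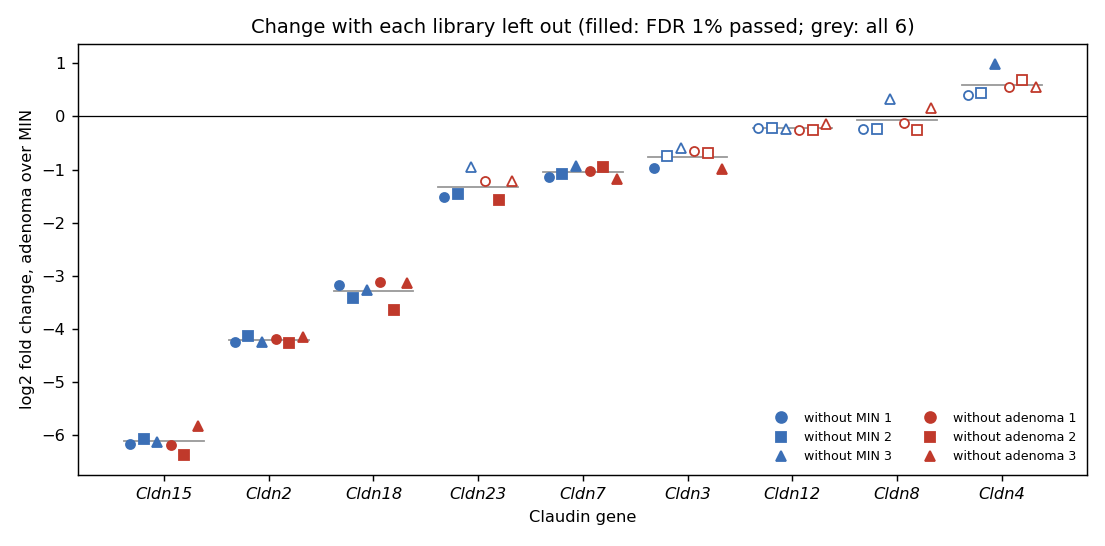
Log2 fold change of adenoma over MIN (y axis) for the 9 claudin genes tested, refitted with each of the 6 libraries left out, with filled symbols where the FDR of 1% was passed and a grey line for all 6 libraries. Cldn15, Cldn2, Cldn18 and Cldn7 stay filled throughout, whereas Cldn23 and Cldn3 change with the library left out and Cldn4 is filled only without MIN replicate 3.

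Sulindac-treated adenoma organoids were compared with untreated ones to ask what the NSAID changes in the polyp epithelium. Only Cldn8 passed the threshold, falling 4.03-fold in mean CPM. The pore claudins Cldn2 and Cldn15 stood at 15.0 CPM or less after sulindac, far under their MIN levels. Of 8 members tested, 1 was lower and none was higher by edgeR's quasi-likelihood test, against 9.10% of the 12962 genes tested lower and 8.32% higher. At an unadjusted p under 0.05, 3 were higher (Cldn3, Cldn7 and Cldn12) and 3 lower (Cldn2, Cldn8 and Cldn23), against 20.7% and 24.0% of all genes. DESeq2's Wald test called 0 higher and 2 lower (Cldn8 and Cldn23), against 12.6% and 12.4% of all genes. The members' median log2 fold change was 0.18, beside -0.013 for all genes. The groups did not overlap for 3 lower members (Cldn2, Cldn8 and Cldn23) and 1 higher member (Cldn12), which held for 26.0% and 22.9% of all genes.

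Cldn8 fell from 8.76, 10.1 and 5.35 CPM in adenoma to 1.37, 2.78 and 1.86 CPM after sulindac. Each treated library lies below each untreated one. This was -2.01 in log2 (SE 0.32, adjusted p = 0.00243 by the edgeR test). The call was lost without sulindac replicate 1 (log2 fold change -1.80, adjusted p = 0.0108) and without sulindac replicate 3 (-1.95, adjusted p = 0.0156). Cldn23 (log2 fold change -0.76, adjusted p = 0.0273) and Cldn2 (-0.55, adjusted p = 0.0604) did not pass in the same edgeR test.

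Among the more abundant members, the change after sulindac was 0.37 in log2 for Cldn3 (adjusted p = 0.098 by the edgeR test) and 0.33 for Cldn7 (adjusted p = 0.0757). In both, adenoma replicate 3 was the highest untreated library, and without it both passed, at 0.57 (adjusted p = 0.00173) for Cldn3 and 0.45 (adjusted p = 0.00964) for Cldn7. For Cldn12 it was 0.26 (adjusted p = 0.0796). For Cldn4 it was 0.10 (adjusted p = 0.563), which turned to -0.061 with library size alone. For Cldn15 it was 0.63 with an SE of 0.39 (adjusted p = 0.253). Cldn18 and Cldn1 had too few counts to be tested here.

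**Figure D3:**
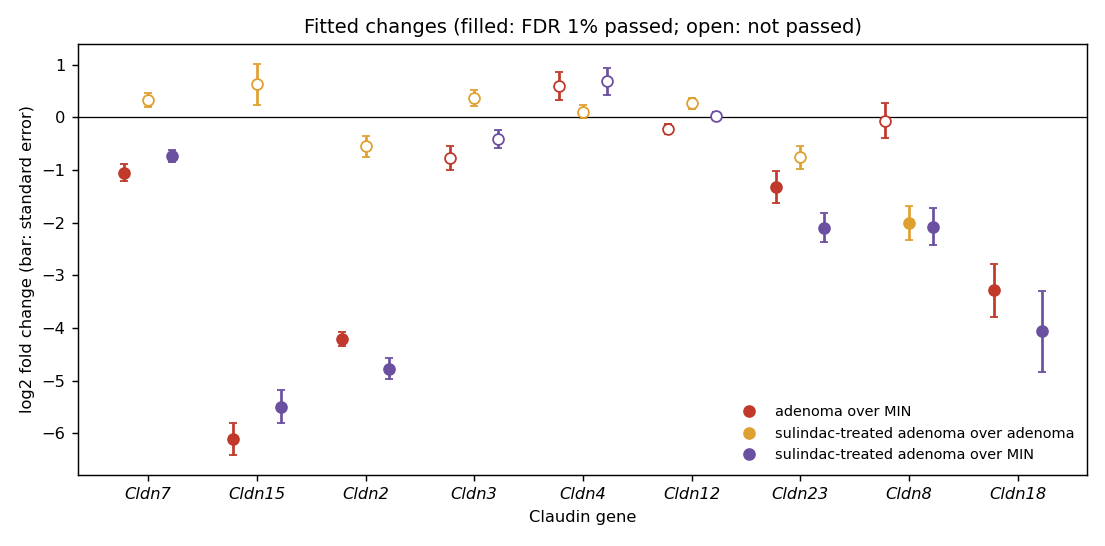
Log2 fold change with its standard error (y axis) for each claudin gene in the 3 comparisons, with filled points where the FDR of 1% was passed. Cldn15 and Cldn2 lie below -4 in both comparisons with MIN, and in the comparison of treated with untreated adenoma only Cldn8, at -2.01, is filled.

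Sulindac-treated adenomas were also set against MIN, which shows how far the treated polyp epithelium stood from the epithelium beside the tumor. This comparison shares its samples with both others. Cldn2, Cldn7, Cldn8, Cldn15, Cldn18 and Cldn23 were lower than in MIN. Of 9 members tested, 6 were lower and none was higher by the edgeR test, against 26.8% of the 13551 genes tested lower and 23.0% higher. Without Cldn18, again tested only through MIN, 5 of 8 were lower, with a median of -1.41. At an unadjusted p under 0.05, 1 member (Cldn4) was higher and 7 were lower, against 31.4% and 35.2% of all genes. DESeq2's Wald test called 1 higher (Cldn4) and 6 lower, against 21.5% and 26.0% of all genes. The members' median log2 fold change was -2.08, beside -0.031 for all genes. In 6 of the 9 every treated library lay below every MIN library, which held for 36.0% of all genes, and in 0 the order was the other way, which held for 33.6%.

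Cldn15 was lower than in MIN by a log2 fold change of -5.49 (adjusted p = 2.58e-06 by the edgeR test) and Cldn2 by -4.77 (adjusted p = 5.2e-07). Cldn23 (-2.09, adjusted p = 0.000193), Cldn8 (-2.08, adjusted p = 0.000975) and Cldn7 (-0.73, adjusted p = 0.000675) were lower too. For Cldn18, the 49 counts of MIN against 2 after sulindac gave a ratio of 19.1 (95% exact interval 5.01 to 162.0, counting error only), with both counts in sulindac replicate 3. Its edgeR adjusted p was 0.00165, again from a test it entered only through MIN. Cldn4 (0.69, adjusted p = 0.0449), Cldn3 (-0.42, adjusted p = 0.0605) and Cldn12 (0.031, adjusted p = 0.734) did not pass. Cldn4 was higher without MIN replicate 3 (log2 fold change 1.08, adjusted p = 2.2e-05), and Cldn3 was lower without MIN replicate 1 (-0.61, adjusted p = 0.00182).

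Levels of different genes were compared per kilobase of annotated exon in GENCODE M21. In MIN the order of mean CPM per kilobase was Cldn7 (268.6), Cldn3 (180.6), Cldn15 (178.4), Cldn4 (101.9) and Cldn2 (93.0), followed by Cldn12 (21.1), Cldn23 (10.2) and Cldn8 (3.60). In adenoma Cldn4 (153.5) led, ahead of Cldn7 (129.6), Cldn3 (105.6) and Cldn12 (18.1), with Cldn2 (5.04), Cldn23 (4.04), Cldn8 (3.43) and Cldn15 (2.57) far behind. After sulindac Cldn4 (163.9), Cldn7 (161.9) and Cldn3 (135.2) led again. The order within the leading group depends on the length used, since with the longest transcript Cldn7 was ahead of Cldn4 in adenoma and after sulindac, and Cldn15 ahead of Cldn3 in MIN.

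The members' summed level was 857.5 ± 130.6 CPM per kilobase (SD, n = 3) in MIN, 421.9 ± 53.2 in adenoma and 493.2 ± 14.1 after sulindac. Cldn2 and Cldn15 together made up 35.1%, 34.5% and 26.7% of that sum in MIN, 1.91%, 2.38% and 1.27% in adenoma, and 1.49%, 1.66% and 1.35% after sulindac. The pore claudins thus held 26.7% or more of the summed claudin level in each MIN library and 2.38% or less in each other library. The share of Cldn4 was 11.6% ± 3.21 (SD, n = 3) in MIN, 36.5% ± 2.91 in adenoma and 33.2% ± 3.36 after sulindac. That of Cldn7 was nearly even, at 31.4% in MIN, 30.6% in adenoma and 32.8% after sulindac. Shares of a library depend on each other, so a share can move otherwise than the gene's own level. In adenoma over MIN the level of Cldn7 fell 2.07-fold, and Cldn4 was not called (adjusted p = 0.085 by the edgeR test).

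**Figure D4:**
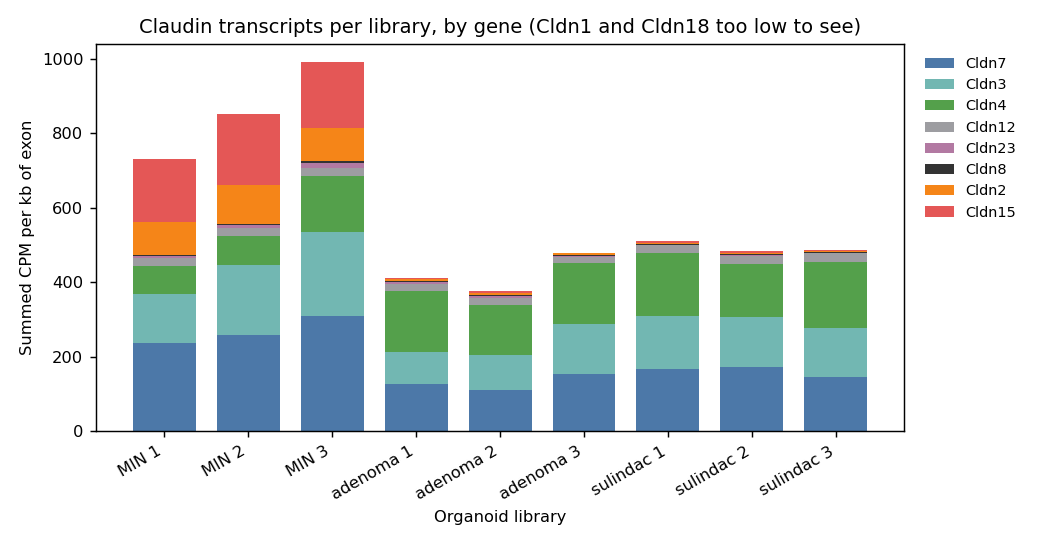
Summed CPM per kilobase of exon (y axis) in each of the 9 libraries (x axis), stacked by claudin gene. The segments of Cldn2 and Cldn15 make up 26.7% to 35.1% of the MIN bars and 1.27% to 2.38% of the others.

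Of the other 16 rows named Cldn, 15 had at most 14 counts in any library and 4 were at 0 in all 9. The exception is the row Cldn25, at 59.5 ± 1.71 CPM (SD, n = 3) in MIN, 61.3 ± 4.96 CPM in adenoma and 68.9 ± 4.91 CPM after sulindac, which was called in none of the 3 comparisons. Its identity is uncertain, because the reference gives Cldn25 as an older name of a pseudogene.

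The proteins that anchor and join claudins were read from a list of 38 other tight junction genes, of which 34 were tested. In adenoma 5 were higher than in MIN and 8 lower, 14.7% and 23.5% of those tested, near the 18.5% and 20.1% of all genes, with a median log2 fold change of -0.035. Blocking on replicate number gave 5 higher and 7 lower, beside 2531 and 2733 of the 13744 genes tested. Library size alone gave 6 and 4, beside 3108 and 2282. The largest rises were in Arhgef2 (2.09, adjusted p = 4.28e-06), a RhoA activator held at the junction, Amotl1 (1.68, adjusted p = 0.00125), a junction scaffold of the Hippo pathway, and Esam (1.496, adjusted p = 3.96e-05), an adhesion molecule best known from endothelium. The largest falls were in Mylk (-1.59, adjusted p = 0.00012), the kinase of the myosin light chain that sets junction tension, Tjp3 (-1.02, adjusted p = 3.87e-05), the scaffold ZO-3, and Magi3 (-0.70, adjusted p = 0.00447), another scaffold.

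After sulindac 9 of the 34 (26.5%) were higher than in untreated adenoma and 1 (2.94%) was lower, beside 8.32% and 9.10% of all genes, with a median log2 fold change of 0.30. With library size alone the split was 5 higher and 2 lower, beside 603 and 1983 of all 12962 genes tested. Blocking on replicate number gave 6 and 1, beside 872 and 1061. The largest rises were in Ildr1 (1.45, adjusted p = 0.00106), a component of tricellular junctions, Cgnl1 (1.31, adjusted p = 0.000553), the adaptor paracingulin, and Esam (1.02, adjusted p = 0.00115), all by edgeR's quasi-likelihood test. Pard6g, a polarity protein, was the gene that fell (-1.92, adjusted p = 0.00213). Against MIN, 12 of the 34 (35.3%) were higher after sulindac and 5 (14.7%) lower, beside 23.0% and 26.8% of all genes. With library size alone 10 were higher, beside 2960 of the 13551 genes tested.

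**Figure D5:**
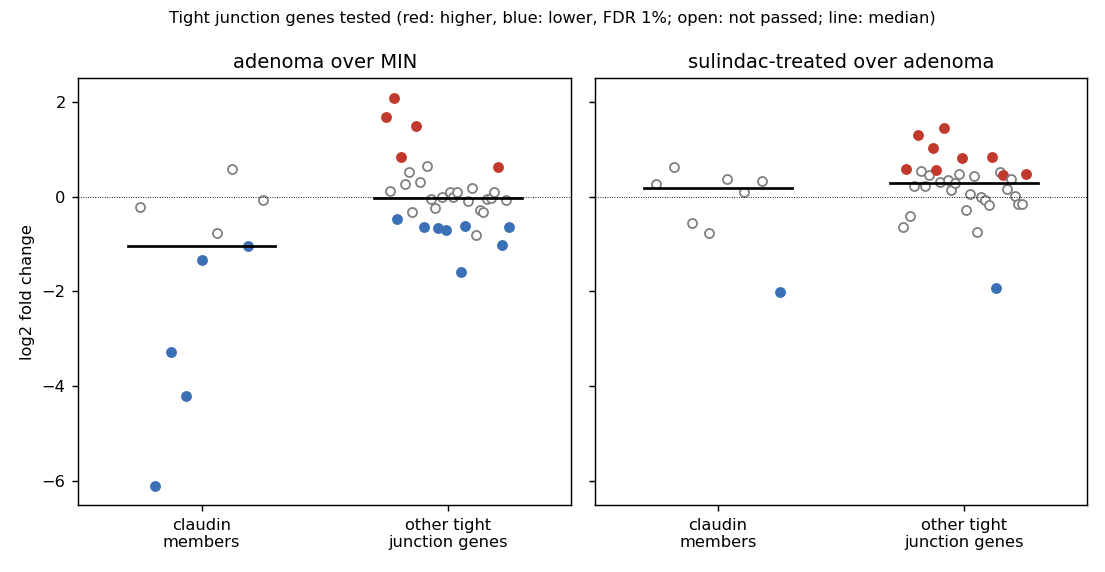
Log2 fold change (y axis) of the claudin genes and of 34 other tight junction genes, adenoma over MIN on the left and sulindac-treated over untreated adenoma on the right, with filled points where the FDR of 1% was passed. On the left 5 claudins are filled, all below 0, beside 5 higher and 8 lower junction genes, and on the right 1 claudin is filled below 0 beside 9 higher and 1 lower junction genes.

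Epithelial genes, among them markers of differentiation and of stem cells, moved beside the claudins. Of 15 epithelial genes, 13 were lower in adenoma than MIN and 1 was higher, beside 20.1% and 18.5% of all genes. The 13 include genes, named below, that entered the test only through MIN and could not have been called higher. The 13 is therefore not read against the share of all genes. The higher one was the stem cell factor Ascl2 (log2 fold change 1.37, adjusted p = 0.000785 by the edgeR test). Lgr5, another stem cell gene, was among the 13 lower, and Krt18 was not called (adjusted p = 0.0249 by the edgeR test). Blocking on replicate number or library size alone gave 2 higher, beside 2531 and 3108 of the 13744 genes tested. The largest falls were in Fabp1 and Alpi, genes of absorptive enterocytes, and Chga, of enteroendocrine cells, which were tested only through MIN. They are among the 13 lower, as is Cdx1, at 0.0855 CPM, about the floor, in adenoma, which was likewise tested only through MIN. No count was made without these genes. Fabp1 had 31703, 33191 and 8581 counts in MIN and 1, 1 and 7 in adenoma. Alpi had 4409, 5641 and 3200 counts against 3, 1 and 1, and Chga 1085, 847 and 1160 against 0, 1 and 0, at or under the floor of 3 counts, so no fold is given. After sulindac 11 of the 15 were tested. Krt8 (0.85, adjusted p = 0.00817) and Vil1 (0.72, adjusted p = 0.00528) were higher by the edgeR test and none lower, beside 8.32% and 9.10% of all genes. With library size alone 0 were higher and 2 lower, beside 603 and 1983 of all 12962 genes tested. Blocking on replicate number gave 2 higher and 2 lower, beside 872 and 1061. The part of cell composition in the claudin changes was not tested.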

How the data were processed

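RNA was sequenced from 9 mouse organoid cultures (MIN, adenoma and sulindac, 3 each). The authors deposited raw counts per gene symbol without normalization. The submitters' processing notes name Bowtie2 2.2.4, RSEM and mm9, while the annotation and the strand setting are not given in the sources used here. MIN replicate 1 was deposited as separate runs and their sum, which held in all 23955 rows, and the sum was used as 1 sample. In 27 rows the symbol had become a date.

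Groups and replicate numbers were taken from the sample titles. From the deposited counts, genes were filtered by filterByExpr, normalized by TMM and tested with edgeR 4.0.16 (limma 3.58.1, R 4.3.3; glmQLFit with robust estimation, glmQLFTest), fitting only the groups compared. P-values were adjusted over all genes tested by the Benjamini-Hochberg method, with a threshold of 1% FDR as in the study. The standard error was taken as the fitted change over the root of the F statistic. Intervals of count ratios are exact binomial ones. The fit was tested on simulated data: for adenoma over MIN, with 13744 genes and 200 changed, it recovered 64% of 2-fold and 88% of 4-fold changes with 1 false call. For sulindac over adenoma it recovered 63% and 94% with 3 false calls. For sulindac over MIN it recovered 72% and 90% with 5 false calls beside 162 changes recovered. Depth was 30881206 to 48412477 counts, and 3 counts were the floor.

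Exon lengths and overlaps came from GENCODE M21 and upstream sequences from RefSeq, both GRCm38, so no coordinates of the deposited build are given. No 50-base stretch of a member occurs in transcripts of another gene (0% for all 10). The members and lists were chosen with earlier results of these data known. All members are named in each comparison, with at most 3 genes in each direction, by absolute log2 fold change among those called, from the lists of other junction and epithelial genes. Cdh1, Vil1, Cdx1, Krt18 and Lgr5 are named in addition. EpCAM is given as values, and the other genes listed as partners of claudin-7 are not reported here.

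Same-numbered adenoma and MIN samples deviated together from their group means (correlations across genes of 0.126, 0.113 and 0.192). Between different numbers the correlations ran from -0.149 to 0.0685. MIN 1 with adenoma 2 (0.0685) and MIN 2 with adenoma 1 (0.0534) were also positive, so numbers 1 and 2 were weakly told apart. No label gives pairs, and the numbers of the titles were treated as possible pairs in a blocked alternative to the main fit. The blocked value is given where it changes a member's call or a count of calls reported here. Alternatives were DESeq2 1.42.0 (Wald test), RLE scaling, scaling by library size alone, a filter of 10 or more counts in each sample or none, a joint fit of the 9 samples, the replicate block, omission of each replicate, a 5% FDR and a 2-fold minimum. Leaving out both libraries numbered 3 was added after the data were seen.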

Additional observations from a re-analysis of the deposited data

How the results depend on the processing

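The number of members lower in adenoma than MIN was 5 and lay between 4 and 6 over all alternatives, and the number lower after sulindac than in MIN was 6 and lay between 5 and 7. Counts over all genes are given for refits only. Over the refits, all genes lower in adenoma than MIN ran from 1920 of 12070 tested to 3383 of 16146. Those lower after sulindac than in MIN ran from 2793 of 11833 to 4144 of 15936. The number higher in adenoma was 0, and 1 without both libraries numbered 3 (an alternative chosen after the data were seen), with a range of 0 to 1 when each replicate was left out. Of all genes, 2549 were higher in the main fit, 2989 without both libraries numbered 3 and 2440 without MIN replicate 3. After sulindac against adenoma, 0 were higher, with a range of 0 to 2 when replicates were left out, and 1 was lower, with a range of 0 to 1, against 2 by DESeq2 and 2 at an FDR of 5%. The counts over all genes moved as well. Lower genes numbered 1179 in the main fit, 492 without sulindac replicate 1, 386 without sulindac replicate 3 and 1738 by DESeq2. Higher genes numbered 1078 in the main fit and 1403 without adenoma replicate 3. After sulindac against MIN 0 were higher, but 1 by DESeq2, 1 at an FDR of 5%, and 0 to 1 with replicates left out. Of all genes, 3114 were higher in the main fit, 3432 by DESeq2 and 3405 without MIN replicate 3. Of 397 values of single members over the alternatives, 366 kept their direction and side of the threshold, 9 lost the call and 17 gained it. These values include the main fit read again at a 5% FDR and with a 2-fold minimum, which are not refits. In 5 the sign turned: Cldn8 in adenoma over MIN with library size alone (0.083), without adenoma replicate 3 (0.16), without MIN replicate 3 (0.34) and without both (0.56), within a range of -0.26 to 0.34 over single omissions, and Cldn4 after sulindac with library size alone (-0.061). None of these 5 values passed the threshold in either fit, and the cause was not tested. Library size alone shifted the median change over all tested genes (log2) to 0.12 in adenoma over MIN and to -0.18 in sulindac over adenoma.

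With the replicate number as a block, 5 members were lower in adenoma than MIN (Cldn3 gained, Cldn23 lost), 1 was lower after sulindac than in adenoma and 6 lower than in MIN. Of all genes, 2733 of 13744, 1061 of 12962 and 3791 of 13551 were lower in these blocked fits. No other call of a member changed. For the comparisons with sulindac the same-numbered samples did not all correlate above 0.1 (0.253, 0.208 and -0.07 with adenoma, -0.03, 0.396 and 0.252 with MIN), so they share only a number.

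With 3 samples a group, members that did not pass are not shown to be equal. In simulation, 64% of 2-fold changes were recovered for adenoma over MIN. That simulation changed 200 of 13744 genes, whereas 2549 higher and 2765 lower genes were called in the data, so the 64% need not hold there. Cldn1 and, outside MIN, Cldn18 lie at or under 3 counts.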
